A study of Mus musculus with 39 samples.

Results

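The 10 genes described here code for transcription factors of the ETS family, *Spic*, *Spi1*, *Spib*, *Elf1*, *Elf3*, *Elf5*, *Ets1*, *Ets2*, *Etv5* and *Gabpa*. They were found through the transcript accession given with each array probe, matched to mouse genes by RefSeq, which gave 17 of the 41174 probes on the array. All 17 were among the 39520 probes tested. ETS factors share a DNA-binding domain that reads a GGAA core, and members differ mainly in the bases they prefer around it and in the proteins they bind. Spi-C, the product of *Spic*, belongs with PU.1 (*Spi1*) and Spi-B (*Spib*) and is best known from red pulp macrophages and B cells. In mouse embryos the main wave of transcription from the new genome comes at the 2-cell stage, when maternal mRNA is also being degraded.

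The study asked how 2-cell embryos cloned from somatic nuclei differ in gene expression from fertilised ones, what trichostatin A, an inhibitor of histone deacetylases, does to that difference, and what injected *Spic* mRNA does. All animals were (B6xDBA/2)F1 mice, adult females as egg donors, and there were 39 one-colour Agilent arrays in 7 groups. OC were 7 arrays of metaphase II oocytes, IVF 6 arrays of 2-cell embryos fertilised in vitro, and Cumulus 4 arrays of the cumulus cells that gave the donor nuclei. TSA(-) were 8 arrays of 2-cell clones, made from enucleated oocytes and cumulus nuclei, and TSA(+) 6 arrays of such clones kept in 5 nM trichostatin A for 8 h from activation. Spi-C 1.0 and Spi-C 0.1, together Spi-C NT, were 4 arrays each of clones without trichostatin A, injected at the pronuclear stage with *Spic* mRNA at 1.0 or 0.1 mg/ml. All embryos were taken after 24 h of culture. Each array held RNA of 10 pooled oocytes or embryos, or of 500 cumulus cells, after 2 rounds of linear amplification. A lower level in every embryo of a pool and loss from some embryos cannot be told apart.

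A level below is the log2 intensity of a probe minus the 75th percentile of its own array, so levels of different probes are not set against each other, and a difference is the log2 level of the first group named minus that of the second. A probe was called where the adjusted p of limma (Benjamini-Hochberg over all tested probes) was under 0.01. The 75th percentile itself ran from 279 to 527 intensity units in OC, from 814 to 1610 in the Cumulus, IVF and uninjected clone arrays, and from 2140 to 2707 in the Spi-C NT arrays, while 48.6 to 59.6% of probes were well above background in OC against 58.2 to 77.4% elsewhere. Arrays of a group correlated with r of 0.944 to 0.974. The Spi-C NT and Cumulus arrays had slides, a scan day, a scanner model and an extraction software version of their own, so in comparisons with the other groups these and the group cannot be told apart. Markers of oocytes summed to 3078 to 5427 on the linear scale in OC and to 1.01 to 1.94 in Cumulus. Markers of cumulus cells summed to 229 to 247 in Cumulus and to 0.282 to 3.88 elsewhere, so both sums went with the labels. Not every cumulus marker did. *Amh* averaged -3.88 in OC and -6.74 in Cumulus, *Foxl2* -4.48 and -5.79, and *Has2* 0.58 and 0.87. The other cumulus markers averaged higher in Cumulus than in OC, and *Cyp11a1* (6.92) and *Tnfaip6* (5.94) made up most of the Cumulus sum.

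Promoters are shown for *Spic* and *Elf3*, which were both lower in uninjected clones than in IVF embryos, and for *Gabpa*, none of whose probes was called in uninjected clones against IVF. Each is the 250 bases before the RefSeq transcript start on the gene's strand (GRCm38.p6), with the core GGAA, or TTCC on the other strand, in capitals. *Spic* lies at chr10:88683024-88683273 (minus strand), *Elf3* at chr1:135258473-135258722 (minus strand) and *Gabpa* at chr16:84834874-84835123 (plus strand).
Spic: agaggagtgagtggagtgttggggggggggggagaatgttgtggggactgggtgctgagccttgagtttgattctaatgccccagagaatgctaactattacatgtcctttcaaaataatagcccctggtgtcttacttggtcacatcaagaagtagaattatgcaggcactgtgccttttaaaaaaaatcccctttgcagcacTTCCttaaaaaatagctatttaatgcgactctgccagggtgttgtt
Elf3: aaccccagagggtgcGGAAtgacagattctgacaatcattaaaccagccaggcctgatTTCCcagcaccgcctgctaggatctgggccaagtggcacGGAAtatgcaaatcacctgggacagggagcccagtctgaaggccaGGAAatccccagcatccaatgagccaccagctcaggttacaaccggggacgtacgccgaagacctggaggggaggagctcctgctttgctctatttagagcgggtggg
Gabpa: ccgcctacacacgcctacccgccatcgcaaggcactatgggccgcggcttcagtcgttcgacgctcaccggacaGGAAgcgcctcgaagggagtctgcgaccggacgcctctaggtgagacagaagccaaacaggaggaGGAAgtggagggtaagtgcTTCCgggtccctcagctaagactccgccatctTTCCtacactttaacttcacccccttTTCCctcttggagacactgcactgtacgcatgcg
The *Spic* window held 1 core, 46 bases before the start, the *Elf3* window 4 and the *Gabpa* window 5. GAGGAAGT, a longer form of the site, was found at -113 of *Gabpa*, and 2.44% of all promoters hold it. TTCCGG, which is CCGGAA on the other strand, was found at -92 of *Gabpa*, against 12% of all promoters. Over 8 of the 10 genes, which had 11 windows, 9 windows held a core, and of 32851 mouse promoters 93.4% did, with a median of 3 cores. A match is only a run of letters in these windows.

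*Spic* was highest in IVF embryos, lower in clones treated with trichostatin A, lower again in untreated clones and in clones injected with *Spic* mRNA, and lowest in cumulus cells. Its brighter probe (A_51_P389885) ranged from -1.61 to 0.74 in OC with a median of -0.85, and from 3.51 to 4.23 in IVF with a median of 4.03. In TSA(-) it ranged from 1.59 to 2.47 with a median of 2.04, and in TSA(+) from 2.78 to 3.52 with a median of 2.91. The 4 groups lay apart, except that TSA(+) replicate 2, at 3.52, was just above the lowest IVF array, at 3.51. The Spi-C 1.0 arrays read 1.42, 1.78, 1.63 and 1.11, and the Spi-C 0.1 arrays 1.66, 1.53, 1.58 and 1.54. The Cumulus arrays read -5.38, -7.33, -2.62 and -5.96, and 3 of these 4 spots were well above background. Intensity was 13679 to 20625 in IVF, 3951 to 7802 in TSA(-) and 9445 to 14523 in TSA(+). The other *Spic* probe (A_52_P361323) followed it, with r of 0.99 over the 39 arrays, a description of arrays that share groups. Its mean was 3.33 for IVF, 2.41 for TSA(+), 1.45 for TSA(-), -2.01 for OC and -6.13 for Cumulus.

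**Figure D1:**
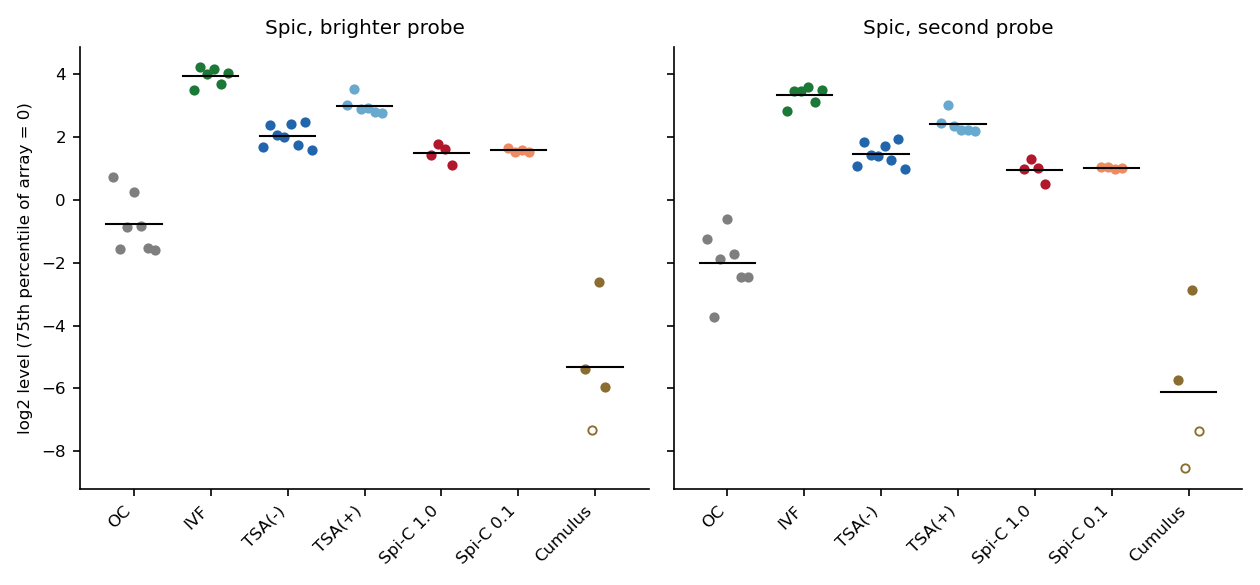
Level of both *Spic* probes (log2 intensity minus the array's 75th percentile, y axis) on each of the 39 arrays by group (x axis). Filled points are spots well above background, open points are not, and bars are group means. IVF arrays lie at 3.51 to 4.23 and TSA(-) arrays at 1.59 to 2.47 for the brighter probe, with TSA(+) between them and Cumulus lowest.

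The study chose *Spic* for further work from these arrays, so its differences among OC, IVF, TSA(-) and TSA(+) are given as sizes, without a test. Its tests against Cumulus and Spi-C NT use some of the same arrays, so they are not independent of that choice. From OC to IVF the mean rose from -0.77 to 3.94, a difference of 4.71 (SE 0.46), or 26.1-fold. TSA(-) minus IVF was -1.90 (SE 0.44), 3.72-fold. TSA(+) minus IVF was -0.94 (SE 0.47) and TSA(+) minus TSA(-) was 0.95 (SE 0.44), each 1.93-fold. These SEs include the wide spread of the Cumulus arrays (SD 1.98). With only the compared groups fitted, the SEs were 0.38 for IVF against OC, 0.18, 0.17 and 0.18 for the other 3 differences. Within the slides that held both groups, TSA(-) minus IVF was -2.42, -2.23 and -1.12 and TSA(+) minus IVF was -0.47, -0.68 and -1.20, and on the 1 slide shared by both kinds of clone TSA(+) lay 0.65 above TSA(-). Within scan days TSA(+) lay 0.59, 0.37 and 1.17 above TSA(-). With all 7 groups fitted together, the *Spic* level of Spi-C 1.0 was 2.25 above OC (adjusted p = 7.76e-05) and OC was 4.56 above Cumulus (adjusted p = 8.54e-11). TSA(-) and Spi-C 0.1 (0.47, adjusted p = 0.556), and both concentrations, did not differ beyond their spread in that fit.

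The close relatives of *Spic* were dim. *Spi1*, which codes for the myeloid factor PU.1, averaged -7.15 in OC, -9.02 in IVF, -8.39 in Cumulus, and -8.47 and -8.33 in TSA(-) and TSA(+), and on those arrays only 1 spot, in TSA(-), was well above background. It was well above background on 3 of 4 Spi-C 1.0 and 2 of 4 Spi-C 0.1 arrays, at means of -6.72 and -6.78. *Spib*, a B-cell and intestinal M-cell factor, was well above background on 6 of 6 IVF arrays (mean -5.31), 3 of 8 TSA(-) arrays (-6.97), 3 of 6 TSA(+) arrays (-6.78), 1 of 4 Spi-C 0.1 arrays (-6.64) and 3 of 4 Cumulus arrays (-6.59), and on none of OC or Spi-C 1.0.

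The ELF genes went different ways. *Elf3*, an epithelial factor, ranged from -1.38 to 0.04 in OC, 1.79 to 2.34 with a median of 2.22 in IVF, 0.28 to 1.15 with a median of 0.44 in TSA(-) and 0.46 to 1.16 with a median of 0.80 in TSA(+). It read -0.15, -0.66, -0.45 and -0.27 in Spi-C 1.0 and -0.50, -0.19, 0.12 and 0.13 in Spi-C 0.1, and fell to -3.46 to -1.69 in Cumulus. IVF thus lay above every other group, and Spi-C NT below every TSA(-) array. *Elf1*, a factor of blood cells and vessels, ran the other way, with IVF arrays at -1.01 to -0.38, TSA(-) at -0.14 to 0.39, TSA(+) at 0.27 to 0.96 and Cumulus at 1.87 to 2.47. Its other probe (A_52_P1034698) did not go with it (r of -0.70 over 39 arrays), with a mean of -4.20 in Cumulus and of 0.32 to 0.59 in embryos. The first probe, A_51_P113137, is the brighter over all 39 arrays through the Cumulus arrays (mean 2.18). In IVF it averaged -0.69, below the other probe. *Elf5*, a factor of trophoblast stem cells and mammary gland, was well above background on 6 of 6 IVF arrays (mean -4.12), 6 of 8 TSA(-) arrays (-5.97), 4 of 6 TSA(+) arrays (-6.34) and no OC array (-6.21).

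*Ets2*, a target of Ras signalling needed in trophoblast, was highest in oocytes. OC arrays lay at 5.96 to 6.72 (median 6.18), Cumulus at 2.70 to 3.25, IVF at 1.71 to 2.47, TSA(-) at 1.12 to 1.57 and TSA(+) at 1.14 to 1.54. Oocytes thus stood apart from all other groups, and IVF embryos from TSA(-) and TSA(+) clones. The Spi-C 1.0 arrays read 1.23, 1.68, 1.93 and 1.28 and the Spi-C 0.1 arrays 1.54, 2.18, 1.38 and 1.63, which overlapped both IVF and TSA(-). *Ets1*, a lymphocyte and vessel factor, had 3 probes, and the others did not follow the brightest, A_52_P258291 (r of -0.01 and -0.05). The probe A_52_P232830 had IVF arrays at -3.62 to -2.61, TSA(-) at -7.08 to -4.39 and TSA(+) at -7.45 to -6.00, with no overlap between IVF and clones. *Etv5*, a factor of spermatogonial stem cells and FGF signalling, lay at -1.50 to -0.81 for IVF, -1.45 to -0.94 for TSA(-) and -0.88 to -0.68 for TSA(+). Its other probe, A_52_P631015 (r of 0.76), averaged -3.26, -3.13 and -2.99 in these groups. *Gabpa*, which codes for the DNA-binding subunit of GA-binding protein, an activator of mitochondrial and housekeeping genes, lay at 4.67 to 5.18 for IVF, 3.96 to 5.46 for TSA(-), 4.77 to 5.19 for TSA(+) and 1.69 to 2.35 for Cumulus. In OC it ranged from -7.24 to -2.47, with 2 of 7 arrays well above background.

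**Figure D2:**
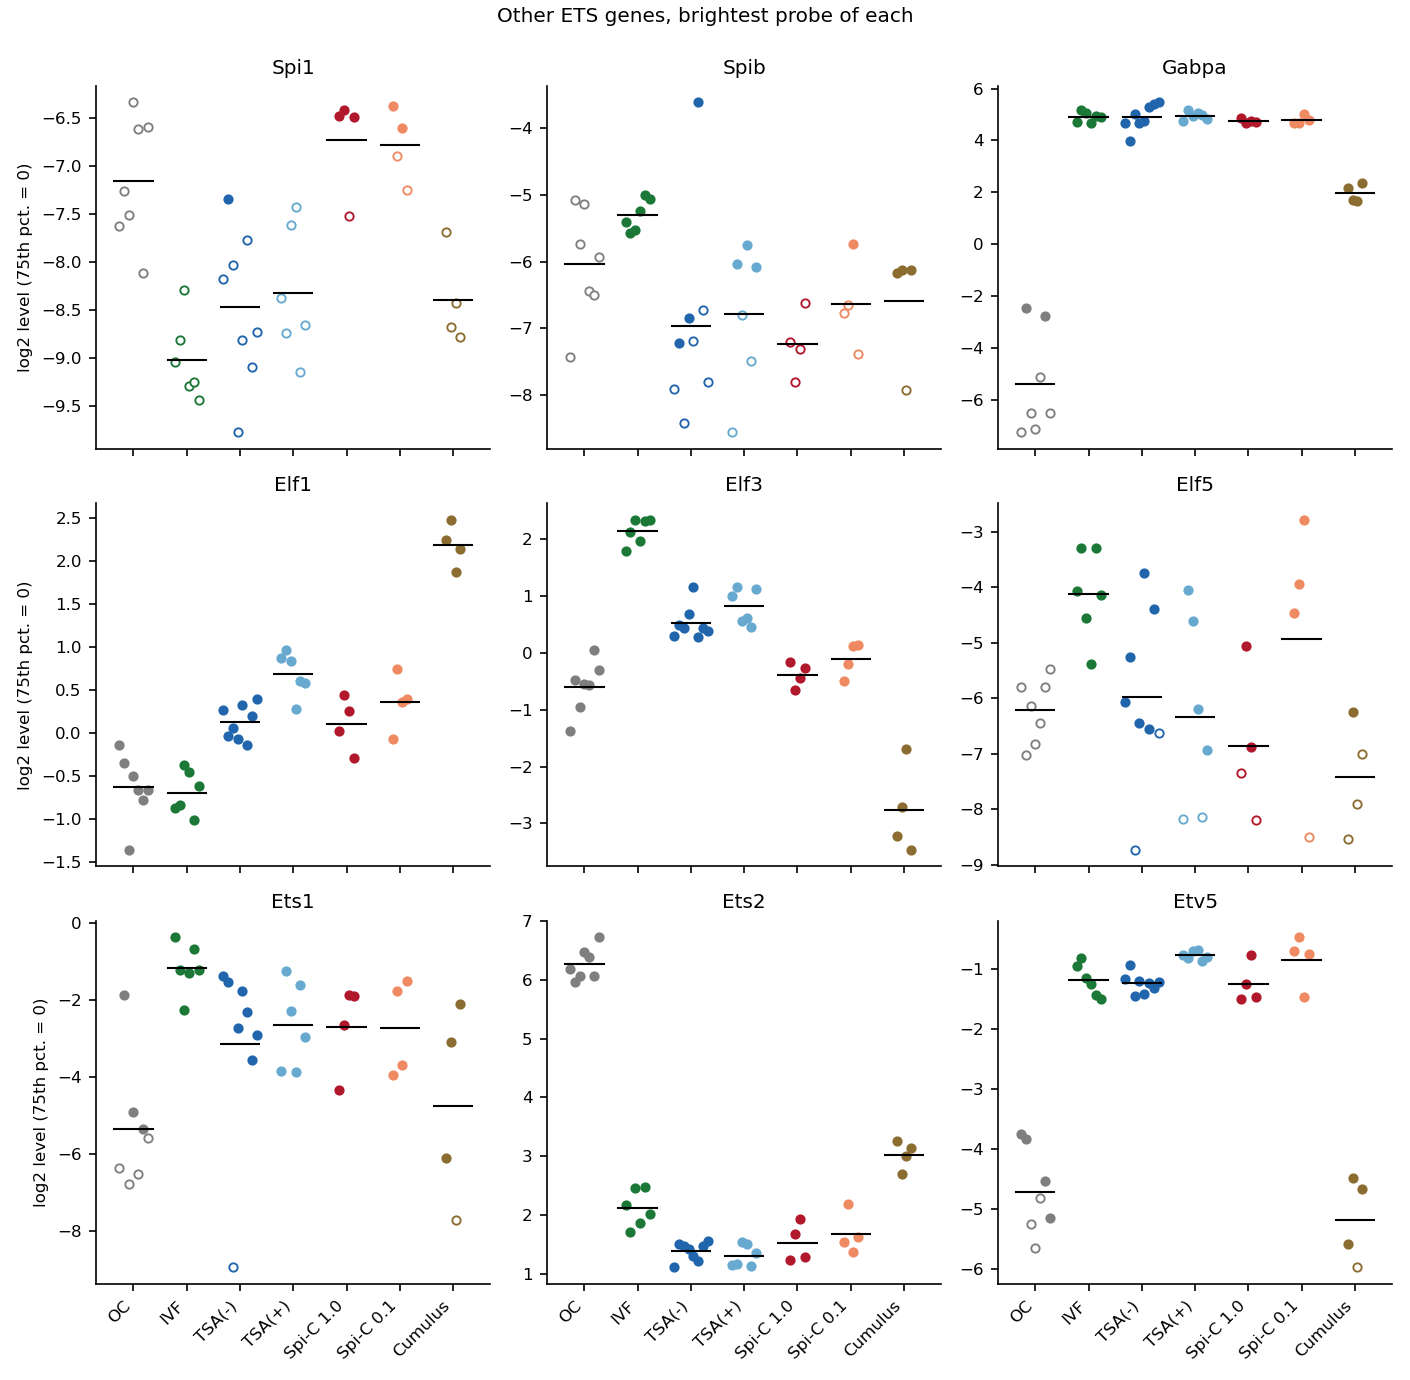
Level of the brightest probe of each of the 9 other ETS genes (log2 intensity minus the array's 75th percentile, y axis) by group (x axis), 1 point per array. Filled points are well above background, open points are not, and bars are group means. *Gabpa* is near 5 in all embryos and below 0 in every OC array, and *Ets2* is highest in OC.

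Between the oocyte and the fertilised 2-cell embryo *Gabpa*, *Etv5*, *Elf3* and *Ets1* rose and *Ets2* fell. Of the 15 probes for the 9 genes other than *Spic*, 9 were called higher and 2 lower in IVF than in OC, where 23.4% of all probes were called higher and 42.6% lower, so that the share called in either direction was close to that of all probes. The median of the 15 was 2.07, beside -0.87 over all probes. The latter was -1.58 with arrays centred on their median and -0.29 after quantile normalization. *Gabpa* rose by 10.30 (SE 0.55, adjusted p = 2.42e-16), measured from a level that 5 of 7 OC arrays did not show well above background, and its other probes rose by 9.41 and 7.08. *Etv5* rose by 3.53 (SE 0.25, adjusted p = 2.47e-13) and *Elf3* by 2.74 (SE 0.23, adjusted p = 1.37e-11). The other *Etv5* probe rose by 1.10 (adjusted p = 0.00755), with overlapping groups. *Ets1* rose by 4.16 (SE 0.98, adjusted p = 0.000402), with the groups overlapping at OC replicate 2, which read -1.89. *Elf5* was at least 3.51-fold higher, a bound set by the dimmest probe well above background (adjusted p = 0.00608), but its difference turned to -0.49 with normexp background correction. That call was also lost with median centring, with all 7 groups fitted, by the Tukey test and with slide as a fixed block, and on leaving out any 1 of 7 of the 13 arrays (adjusted p up to 0.0163). *Ets2* fell by 4.15 (SE 0.15, adjusted p = 4.09e-20), every IVF array lying below every OC array. *Elf1* differed by -0.06 (95% interval -0.41 to 0.28) and *Spib* by 0.73 (-0.41 to 1.86). *Spi1* was called lower, at -1.87, with no array of either group well above background.

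Cumulus cells, the nuclear donors, read lower than IVF embryos for *Spic*, *Elf3* and *Etv5* and higher for *Ets2* and for the *Elf1* probe A_51_P113137. *Spic* was lower in Cumulus than in IVF (difference -9.26, SE 0.53, adjusted p = 1.68e-15) and 7.37 higher in TSA(-) clones than in Cumulus (SE 0.50, adjusted p = 9.79e-14). *Elf3* (-4.91, adjusted p = 7.62e-16) and *Etv5* (-3.995, adjusted p = 4.94e-13) were also lower than in IVF, and clones stood 3.29 and 3.94 above the donor cells. At the other *Etv5* probe Cumulus differed from IVF by -1.25 (adjusted p = 0.0105), not called, and TSA(-) clones stood 1.37 above Cumulus. *Elf1* was 2.87 higher in Cumulus (adjusted p = 9.26e-14), while its other probe was lower (-4.53). *Ets2* was 0.91 higher (adjusted p = 3.77e-05). *Elf5* was lower (-3.30, adjusted p = 0.000429), a call lost with quantile normalization and with normexp background correction. *Ets1* was lower at its brightest probe (-3.57, adjusted p = 0.00719), with overlapping groups. The *Ets1* probe A_52_P194250 was 2.61 higher (adjusted p = 0.0173) and A_52_P232830 differed by -1.02 (adjusted p = 0.0327), neither of them called. *Gabpa* was lower (-2.93, adjusted p = 0.000170), while its probe A_52_P152283, the dimmest in embryos but not in Cumulus, was 2.58 higher. Of the 15 probes, 3 were called higher and 6 lower in Cumulus than in IVF, beside 24% and 31.2% of all probes, with a median of -1.28 against -0.13. In TSA(-) against Cumulus 5 were higher and 5 lower, beside 30.4% and 24.5%. The Cumulus arrays also carried leukocyte genes, 7 of the 8 measured being well above background on each array. Their summed level was 33.2, 43.4, 109 and 116 on replicates 1 to 4, on which *Spic* read -5.38, -7.33, -2.62 and -5.96, against 0.0906 to 9.31 on the arrays of other groups. *Lyz2* (mean 5.65) and *Cd52* (3.06) made up most of the Cumulus sum. *Coro1a* averaged -1.50 in Cumulus and -0.51 in IVF. *Laptm5* was well above background on no Cumulus array and on 6 of 6 IVF arrays. The other leukocyte genes averaged higher in Cumulus than in any other group. The part of leukocytes in the Cumulus levels was not tested, and *Spi1* was not well above background in Cumulus.

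Untreated clones had less *Elf3*, *Ets2* and *Ets1* and more *Elf1* than IVF embryos, beside the lower *Spic* described above. *Elf3* differed by -1.62 (SE 0.23, adjusted p = 2.61e-06) and *Ets2* by -0.73 (SE 0.15, adjusted p = 0.000304). The *Ets1* probe A_52_P232830 differed by -2.52 (SE 0.34, adjusted p = 1.78e-06), its other probes by -1.96 and -2.07 without passing (adjusted p = 0.132 and 0.0505). *Elf1* was 0.82 higher (SE 0.16, adjusted p = 0.000304), its other probe 0.08 higher (adjusted p = 0.892). For the 4 called probes no TSA(-) array overlapped an IVF array. This describes the same arrays that gave the calls, and the share of all probes without overlap was not counted. *Spib* (-1.66, adjusted p = 0.0205) and *Elf5* (-1.85, adjusted p = 0.0309) did not pass. *Gabpa* differed by 0.00 (95% interval -1.09 to 1.08) and *Etv5* by -0.06 (-0.56 to 0.44). The other *Etv5* probe differed by 0.13 (adjusted p = 0.846). The *Gabpa* interval includes the wide spread of the OC arrays (SD 2.01, beside 0.20 in IVF). Its probe A_52_P126238 was 1.16 lower (adjusted p = 0.143) and A_52_P152283 was 0.02 higher (adjusted p = 0.980), neither of them called. The called share was 1 probe higher and 3 lower of 15, beside 8.58% and 10.2% of all probes, with a median of -0.73 against -0.04. The study measured *Elf3* beside *Spic* after seeing these arrays, so its test here is not independent of that choice. On the slides shared by both groups the difference in *Elf3* was -1.68, -1.36 and -1.30. Markers of the 2-cell stage summed to 152 to 205 in IVF and to 35.7 to 110 in TSA(-), and 9 of 9 probes for these 5 genes were called lower. In OC these markers summed to 26.0 to 40.9, as *Tcstv1* (mean 4.10) and *Tcstv3* (3.55) were present in oocytes, so the sum is not particular to the 2-cell stage. Markers of oviduct epithelium summed to 8.04 to 10.98 for IVF, 8.30 to 16.8 for TSA(-) and 13.7 to 20.1 for TSA(+). Most of this sum was *Epcam*, which averaged 3.17, 3.58 and 3.96 in these groups. *Ovgp1*, *Foxj1* and *Pax8* averaged -0.98 or less in each of them, so the sum says little about oviduct cells. The part of either list in the levels of the ETS genes was not tested.

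The 4 probes called in untreated clones were also the ones called, in the same directions, in clones treated with trichostatin A. In TSA(+) against IVF, which shares the IVF arrays with the comparison above, *Elf3* differed by -1.32 (SE 0.24, adjusted p = 0.000113) and *Ets2* by -0.80 (SE 0.16, adjusted p = 0.000216). *Ets1* at A_52_P232830 differed by -3.41 (SE 0.37, adjusted p = 3.92e-08) and *Elf1* was 1.38 higher (SE 0.17, adjusted p = 5.64e-07). The other *Ets1* probes differed by -1.46 and -2.27 without passing (adjusted p = 0.306 and 0.0433). The other *Elf1* probe was 0.24 higher (adjusted p = 0.648). Again 1 of 15 probes was called higher and 3 lower, beside 8.02% and 10.8% of all probes. The 2-cell markers summed to 58.1 to 125 in TSA(+). Set directly against TSA(-), none of the 15 probes was called, beside 0.144% of all probes, or 57 in all. *Elf1* was 0.56 higher in TSA(+) (SE 0.16, 95% interval 0.23 to 0.90, adjusted p = 0.0767), *Etv5* 0.47 higher without overlap of the groups (SE 0.24, adjusted p = 0.345) and *Elf3* 0.30 higher (95% interval -0.17 to 0.76, adjusted p = 0.543). The other *Elf1* probe was 0.16 higher (adjusted p = 0.852) and the other *Etv5* probe 0.15 higher, with overlapping groups (adjusted p = 0.877). The brightest *Ets1* probe was 0.50 higher (adjusted p = 0.838), and A_52_P194250 differed by -0.20 (adjusted p = 0.931). *Ets1* at A_52_P232830 differed by -0.89 (95% interval -1.59 to -0.18, adjusted p = 0.188). Without adjustment, 2 of the 15 probes in limma had p under 0.05, *Elf1* and this *Ets1* probe, beside 16.2% of all probes. The Tukey test, which the study's methods use, called *Elf1* and 1.98% of all probes at the 1% level.

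**Figure D3:**
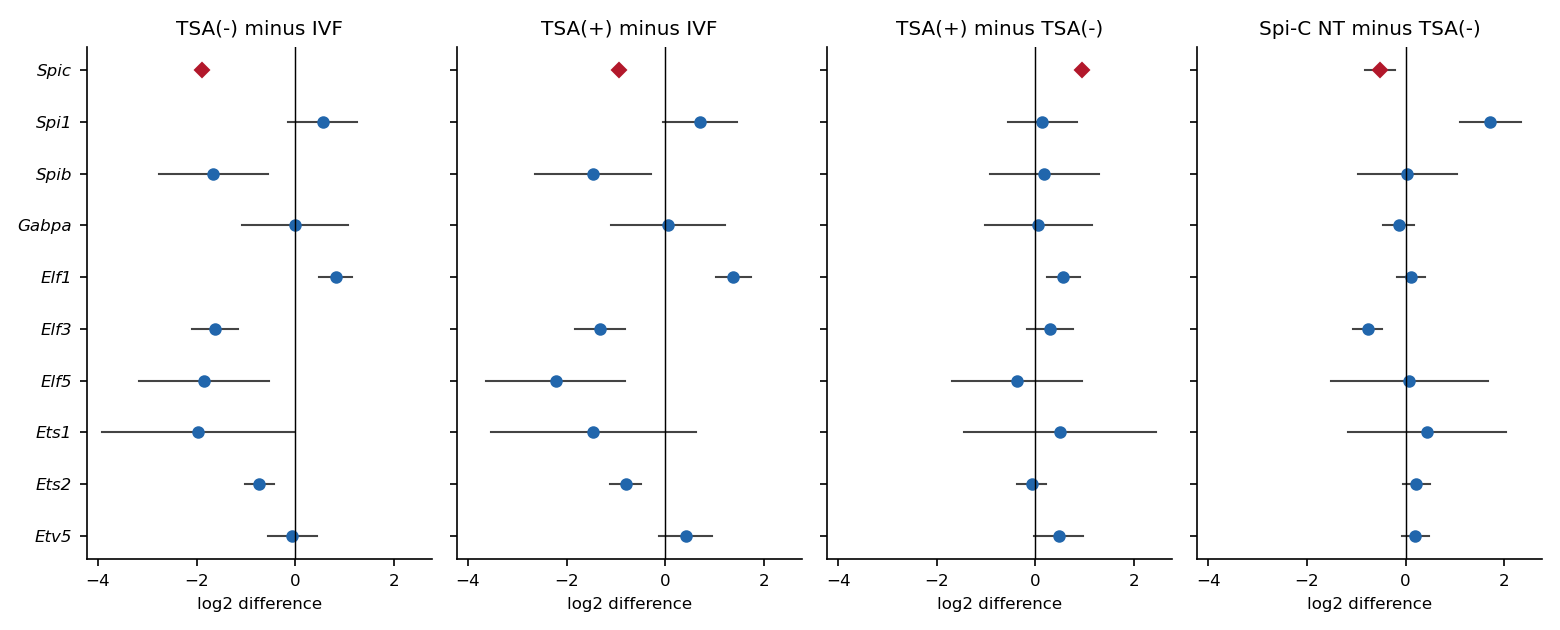
Difference in level (log2, x axis) for the brightest probe of each of the 10 genes (y axis) in TSA(-) minus IVF, TSA(+) minus IVF, TSA(+) minus TSA(-) and Spi-C NT minus TSA(-). Lines are 95% intervals from limma, and *Spic*, a diamond, has one only in the last panel. *Elf3* and *Ets2* lie left of 0 and *Elf1* right of 0 in both comparisons with IVF, and the brightest *Gabpa* probe lies near 0.

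Clones injected with *Spic* mRNA did not read higher at the *Spic* probes than uninjected clones. *Spic* was slightly lower in Spi-C NT than in TSA(-) (difference -0.51, SE 0.15, 95% interval -0.82 to -0.21, adjusted p = 0.00993), with overlapping groups, just inside the threshold. Its other probe differed by -0.47 (adjusted p = 0.0223), and with all 7 groups fitted together the adjusted p for the brighter probe was 0.343. The call was lost in 5 of 12 other settings and on leaving out any 1 of 12 of the 16 TSA(-) and Spi-C NT arrays, with adjusted p of 0.0116 to 0.0275. It held without TSA(-) replicate 1, 6 or 8 or Spi-C 1.0 replicate 2. Against IVF, *Spic* differed by -2.41 (SE 0.16), given as a size only. Between 1.0 and 0.1 mg/ml, which shared slides and scan, *Spic* differed by -0.09 (SE 0.21, 95% interval -0.53 to 0.34, adjusted p = 0.999), and by 0.0020 and -0.19 within the 2 slides. Where the probes lie in the transcript was not analysed here, and whether they read the injected mRNA was not tested.

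The 2-cell markers summed to 33.1 to 64.3 in Spi-C NT, overlapping the 26.0 to 40.9 of OC. Oocyte markers summed to 362 to 444 in Spi-C NT and to 515 to 608 in TSA(-), with 2 of 10 probes called higher and 6 lower. Oviduct markers summed to 6.05 to 9.96 and to 8.30 to 16.8 in these groups. The part of the 2-cell, oocyte and oviduct markers in these differences was not tested. *Elf3* was also lower in Spi-C NT than in TSA(-) (difference -0.77, SE 0.14, adjusted p = 0.000168), with no overlap, and than in IVF (-2.39, adjusted p = 4.12e-12). The dimmest *Gabpa* probe differed by -1.20 (SE 0.25, adjusted p = 0.000657), while its brightest probe differed by -0.14 (adjusted p = 0.530). *Spi1* was 1.72 higher (SE 0.30, adjusted p = 8.89e-05), a difference between spots near background that became -0.17 with normexp correction. Of the 15 probes other than *Spic*, 1 was called higher and 2 lower, beside 12.1% and 8.8% of all probes. Against IVF, 2 were higher and 4 lower, beside 19.4% and 16.7%. *Ets1* at A_52_P232830 differed by -2.25 (adjusted p = 2.20e-05), *Elf1* by 0.93 (adjusted p = 9.58e-06) and the dimmest *Gabpa* probe by -1.18 (adjusted p = 0.000918). The other *Ets1* probes differed by -1.53 and -2.04 (adjusted p = 0.137 and 0.0753) and the other *Elf1* probe by 0.24 (adjusted p = 0.101), none of them called. *Ets2* differed by -0.51 (adjusted p = 0.00577), a call lost in 3 of 12 other settings and on leaving out any 1 of 8 of the 14 arrays (adjusted p up to 0.0210). Between the concentrations none of the 17 probes was called in limma, beside 0.00506% of all probes, or 2 in all, and 1 had an unadjusted p under 0.05. That was *Etv5*, lower at 1.0 mg/ml (-0.40, 95% interval -0.79 to -0.01), beside 4.11% of all probes, and the Tukey test called none. *Elf3* differed by -0.27 between them (-0.69 to 0.14).

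*Eif1a*, a translation initiation factor gene that the study names beside *Spic*, averaged 4.07 for IVF, 3.70 for Cumulus, 3.26 for TSA(+), 3.06 for TSA(-) and -1.15 for OC at its brighter probe (A_51_P277884). TSA(-) minus IVF was -1.02 (SE 0.32, adjusted p = 0.0168), without overlap but not called. That SE includes the wide spread of the OC arrays (SD 1.17, beside 0.28 in IVF and 0.24 in TSA(-)). Spi-C NT minus IVF, from the fit of 2-cell embryos only, was called lower without overlap (-0.91, SE 0.12, adjusted p = 1.03e-06). The other *Eif1a* probe differed there by -0.66 (adjusted p = 0.0499), not called. Spi-C 1.0 read 3.51, 3.30, 3.16 and 3.26 and Spi-C 0.1 from 2.94 to 3.12, so that every array of the higher concentration lay above every array of the lower. The difference was 0.29 (95% interval -0.04 to 0.62, adjusted p = 0.999), not called. At the other *Eif1a* probe it was 0.59 (-0.15 to 1.33), with overlapping groups. Against TSA(-), Spi-C NT differed by 0.10 (adjusted p = 0.531) at the brighter probe and by -0.77 (adjusted p = 0.0222) at the other, neither of them called. *Eif1ax* was called lower in TSA(-) than in IVF (-0.91, adjusted p = 0.00466), and in TSA(+) (-1.22, adjusted p = 0.000570), at its brightest probe, while its other probe differed by 0.63 and 0.36 without being called. In Spi-C NT against IVF the brightest probe was called lower (-0.72, adjusted p = 4.38e-05) and the other higher (1.00, adjusted p = 0.00802).

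Genes that work with or answer to ETS factors were counted from lists of related genes. Among 15 other ETS genes (21 probes), 4 probes were higher and 10 lower in IVF than in OC, beside 23.4% and 42.6% of all probes. *Etv2* was at least 7.27-fold higher, being well above background on no OC array, and *Erf*, an ETS repressor, was lower (-2.94). In TSA(-) against IVF 2 were higher and 1 lower, beside 8.58% and 10.2%, *Erf* by 1.32 (adjusted p = 0.00143), *Etv6* by 0.81 (adjusted p = 0.00398) and *Ehf* by -1.12 (adjusted p = 0.00656). In Spi-C NT against TSA(-) 5 were higher and 3 lower, beside 12.1% and 8.8%, and *Erf* differed by -1.97 (adjusted p = 1.97e-06).

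Among 10 partners and regulators (16 probes), 1 was higher and 2 lower in TSA(-) than in IVF, shares near the 8.58% and 10.2% of all probes. *Irf4*, which binds DNA with PU.1 and Spi-B, was at least 48.9-fold lower (adjusted p = 8.72e-07), being well above background on none of the 7 TSA(-) arrays that gave a value, and *Gabpb2*, a partner subunit of GA-binding protein, was 1.94 higher (adjusted p = 0.000361). Of 11 macrophage genes that PU.1 or Spi-C is known to act on (15 probes), 8 probes were higher and none lower in Cumulus than in IVF, beside 24% and 31.2% of all probes. *Tyrobp*, an adaptor of myeloid receptors, was at least 260.3-fold higher, being well above background on no IVF array, and *Slc40a1*, the iron exporter, was 6.21 higher. *Tyrobp* and *Csf1r* of this list are also among the leukocyte markers, which summed to 33.2 to 116 in Cumulus and 1.60 to 9.31 in IVF, and the part of leukocytes in this count was not tested. In TSA(-) against IVF, 2 of these 15 were lower and none higher, beside 10.2% and 8.58% of all probes. In Spi-C NT against TSA(-) none was called, beside 12.1% of all probes called higher and 8.8% lower.

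Of 6 genes that respond to ERK signalling (7 probes), 4 probes were higher and 1 lower in IVF than in OC, beside 23.4% and 42.6% of all probes. In TSA(-) 4 were lower and none higher than in IVF, beside 10.2% and 8.58%. *Fos*, an immediate early gene, averaged 0.18 in IVF and -3.26 in TSA(-), a difference of -3.44 (adjusted p = 1.02e-09). *Dusp6*, an ERK phosphatase, averaged 5.65 and 3.36, a difference of -2.29 (adjusted p = 1.63e-09). TSA(+) minus IVF was -2.46 for *Fos* and -2.12 for *Dusp6*. In Spi-C NT against TSA(-), *Spry2*, an inhibitor of receptor tyrosine kinase signalling, was 5.04 higher (adjusted p = 1.01e-07), from -4.86 to 0.17 without overlap, and *Spry4* differed by -2.18 (adjusted p = 1.79e-05) at one probe and by 0.0035 (adjusted p = 0.985) at the other.

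Of 5 probes for trophoblast factors, known to act with *Elf5* and *Ets2* there, 3 were called lower and none higher against IVF both in TSA(-), beside 10.2% and 8.58% of all probes, and in TSA(+), beside 10.8% and 8.02%. These were *Eomes*, *Cdx2* and *Tfap2c*, and *Esrrb* and *Gata3* were not called. *Eomes*, needed for trophoblast stem cells, averaged 0.75 in IVF, on 6 of 6 arrays well above background, and -6.83 in TSA(-), on 3 of 8, a difference of -7.58 (adjusted p = 1.95e-09). *Cdx2*, a trophectoderm factor, averaged -0.59 and -6.07, a difference of -5.47 (adjusted p = 1.10e-05). *Tfap2c* differed by -1.22 (adjusted p = 8.53e-06). Spi-C NT minus IVF was -8.08 for *Eomes*, well above background on 1 of 8 Spi-C NT arrays, and -6.34 for *Cdx2*, well above background on 4 of 8. Against TSA(-), 1 of the 5 probes was called, *Esrrb* (-0.68, adjusted p = 0.00176), beside 12.1% of all probes called higher and 8.8% lower. In TSA(+) against TSA(-) no probe of these lists was called, beside 0.144% of all probes.

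**Figure D4:**
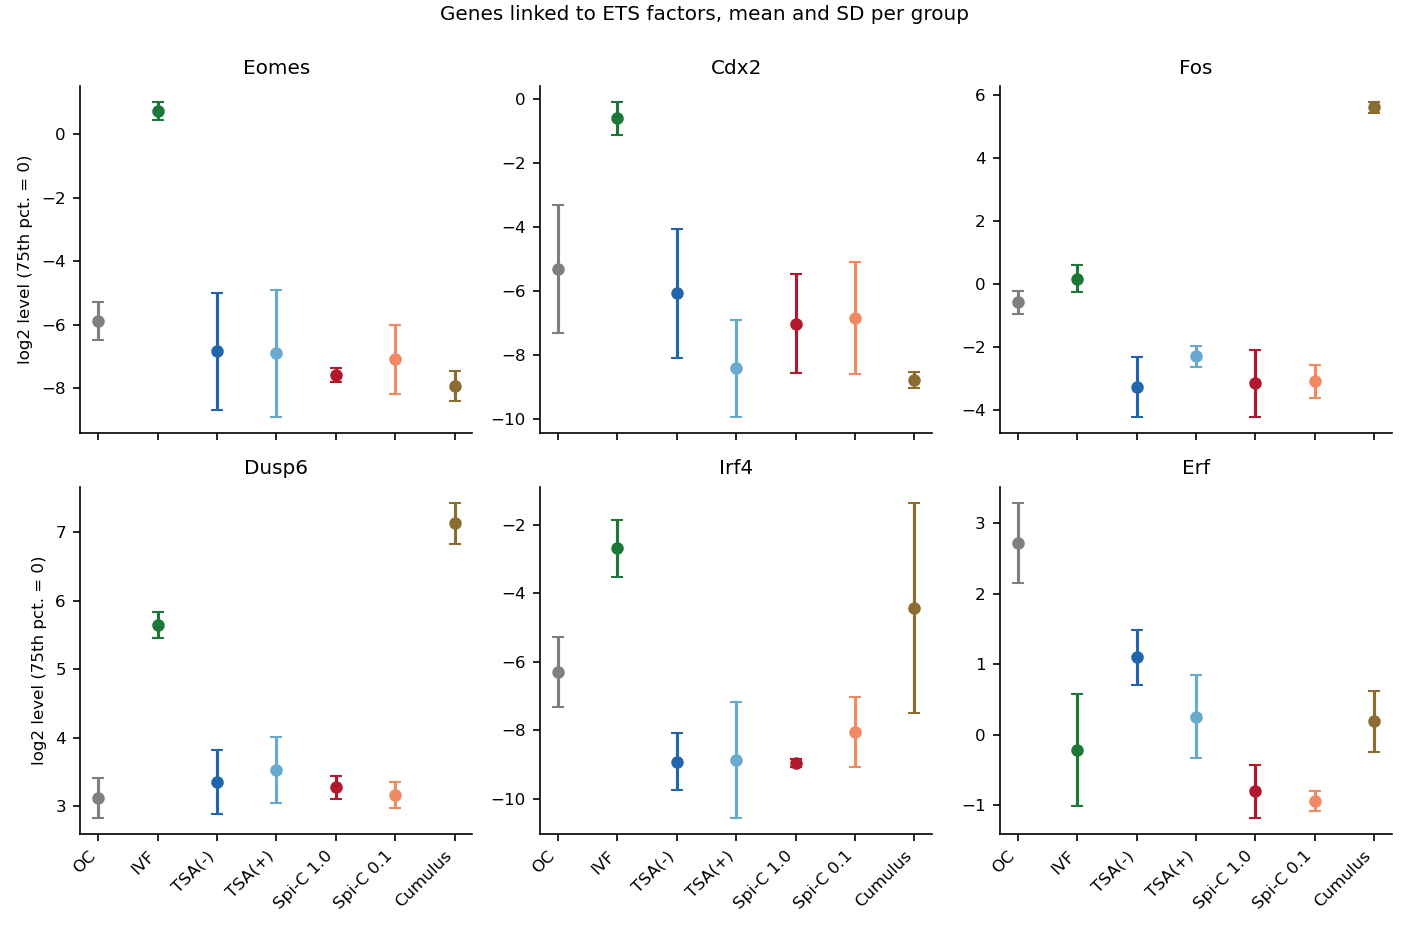
Mean level (log2 intensity minus the array's 75th percentile, y axis) of *Eomes*, *Cdx2*, *Fos*, *Dusp6*, *Irf4* and *Erf* in each group (x axis), with bars of 1 SD over arrays. The lowest means include arrays that were not well above background. *Eomes* falls from 0.75 in IVF to -6.83 in TSA(-), *Fos* from 0.18 to -3.26, and *Erf* is lower in Spi-C NT than in TSA(-).

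The genes whose level over the 39 arrays was most like that of the brighter *Spic* probe were *Dst* (Pearson r of 0.965), *Spdye4b* (0.963), *Hormad1* (0.955), *Otud6b* (0.952) and *Slc25a25* (0.950). These arrays share groups, slides and scanner, so r describes the arrays and carries no test. *Spdye4b* averaged 4.50 for IVF, 3.44 for TSA(+), 2.87 for TSA(-), 2.34 for Spi-C 0.1, 2.24 for Spi-C 1.0, -0.92 for OC and -8.77 for Cumulus, the order of *Spic*. *Hormad1*, a meiotic chromosome axis gene, averaged 0.11, 0.07, -0.36, -1.02, -1.38, -3.10 and -6.32 in the same groups. *Dst*, *Otud6b* and *Slc25a25* did not keep that order. *Dst* averaged 0.20 for TSA(+) and 0.22 for TSA(-), and *Otud6b* 2.47 for both IVF and TSA(+). *Slc25a25* averaged 3.83 for TSA(+), 3.71 for TSA(-) and 3.76 for Spi-C 0.1.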

How the data were processed

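RNA of mouse oocytes, 2-cell embryos and cumulus cells was measured on 39 one-colour Agilent arrays. The deposited scanner files gave a background-corrected intensity for each spot from Feature Extraction, named as 9.5.3.1 in the labels, while the file headers gave that version for 27 arrays and 10.5.1.1 for 12. The authors' values on the log2 scale, also deposited, followed the values used here closely (lowest r of 0.9997). The study normalised with GeneSpring. Here log2 intensity minus each array's 75th percentile was used, leaving out 5238 outlier spots; 1820 values were missing, 1 among the 17 ETS probes, which limma leaves out of that probe's fit. Control spots were left out and spots of a probe averaged. No saturated spot was found at these probes.

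Probes with an intensity of at least 10 on 1 or more IVF or clone arrays were tested with limma 3.58.1 (lmFit and eBayes, R 4.3.3; statmod 1.5.0), with Benjamini-Hochberg adjustment over all 39520 tested probes. OC, IVF, TSA(-), TSA(+) and Cumulus were fitted together, as were IVF, TSA(-), TSA(+) and both Spi-C groups, the latter averaged as Spi-C NT. Fits were tested on simulated data. The number of arrays limits the precision, and p-values measure the spread between arrays, since the labels do not say that these came from separate collections.

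The 10 genes, the 6 lists of linked genes and the tests were chosen with earlier results of these data known. Named were the members at every probe, brightest first, at most 4 called genes per list and comparison, *Eif1a*, *Eif1ax*, and the 5 genes most correlated with *Spic*. The genes of the marker lists were summed on the linear scale. Replicate numbers of different groups did not pair the arrays, as same-numbered arrays correlated in their deviations at -0.0875 to 0.0847. Promoter windows came from RefSeq (GRCm38.p6) for 8 of the 10 genes.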

Additional observations from a re-analysis of the deposited data

Results flagged for a closer look

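Of 118 sets of arrays, each 1 ETS probe in 1 group, 10 (8.47%) had an array far from the rest by Dixon's test, where chance gives about 1 in 20. TSA(+) replicate 2 was high at both *Spic* probes, at 3.52 (others 2.78 to 3.03) and 3.02 (others 2.20 to 2.45), and without it *Spic* in TSA(+) stood 0.84 above TSA(-) instead of 0.95. *Elf3* read 1.15 in TSA(-) replicate 5 (others 0.28 to 0.68). *Ets1* at its brightest probe read -1.89 in OC replicate 2 (others -6.78 to -4.92) and -8.95 in TSA(-) replicate 3 (others -3.57 to -1.38). The other *Elf1* probe read -0.76 in the same OC replicate 2 (others 0.37 to 1.07). *Spib* read -3.62 in TSA(-) replicate 6 (others -8.41 to -6.73) and -7.92 in Cumulus replicate 3 (others -6.17 to -6.12). *Spi1* read -7.52 in Spi-C 1.0 replicate 3 (others -6.48 to -6.42), and the other *Etv5* probe read -3.32 in Spi-C 0.1 replicate 3 (others -2.79 to -2.75).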

How the results depend on the processing

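*Spic* kept its direction under every setting tried in IVF against OC (4.002 to 4.86, the lowest with arrays centred on their median), TSA(-) against IVF (-2.19 to -1.79), TSA(+) against IVF (-0.96 to -0.71), TSA(+) against TSA(-) (0.85 to 1.36, the highest with slide as a fixed block, SE 0.75), Spi-C NT against IVF (-2.54 to -2.39) and Cumulus against IVF (-9.36 to -7.24). For Spi-C NT against TSA(-) the *Spic* difference of -0.51 lost its call with no filter on dim probes (-0.51, adjusted p = 0.0103), with all 7 groups (-0.51, adjusted p = 0.343), with only the compared groups (-0.51, adjusted p = 0.0203) and with slide as a random block (-0.51, adjusted p = 0.0171). With the replicate number as a block it was -0.56 (adjusted p = 0.0101), although the numbers did not pair the arrays. Leaving out single arrays gave -0.58 to -0.45 there, and -0.19 to 0.03 for Spi-C 1.0 against Spi-C 0.1, the sign turning to 0.031 without Spi-C 1.0 replicate 4. Of the 17 ETS probes, the Tukey test called 1 in TSA(+) against TSA(-). With slide as a fixed block 2 instead of 6 were called in TSA(-) against IVF, *Elf1* (adjusted p = 0.0202) and *Ets2* (adjusted p = 0.0222) among those lost. The 6 included both *Spic* probes, for which no test is read in this comparison. The share of all probes called with that block was not counted, and the cause of the loss was not tested. With normexp background correction *Elf5* in IVF against OC turned to -0.49, and *Spi1* turned to -0.17 in Spi-C NT against TSA(-) and to -0.36 against IVF, all in dim probes. The brightest *Ets1* probe was lower in Cumulus than in IVF (-3.57, adjusted p = 0.00719). That call was lost in 4 of 12 settings and on leaving out any 1 of 7 of 10 arrays, with adjusted p up to 0.0604. The *Ets1* probe A_52_P194250 went the other way there (2.61, adjusted p = 0.0173, not called).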
